A study of Mus musculus with 18 samples.

Results

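The autophagy machinery was followed here through 35 genes that start an autophagosome, feed its membrane, couple LC3-type proteins to it, load it with cargo and tether it to the lysosome. They were found in the deposited count table by gene name, with 1 row each among 54532 genes, and all 35 were among the 18291 genes left for testing after a filter on low counts. The libraries are poly(A) RNA sequencing of mouse nasal mucosa, 6 in each of 3 groups. In the C10 group, mice taken to have been given papain also received the compound C10, an inhibitor of the DNA repair and redox protein APE1 according to the series title, at 10 mg/mL and 10 µL in each nostril, once daily for 10 days from the first papain dose. Papain exposure of this group is read from the protocol, which describes dosing the model animals. In the CRS group, mice received 20 µg of papain, a plant protease, in 20 µL into the nose on days 0 to 2 and again on days 7 to 11, as a model of chronic rhinosinusitis, a lasting inflammation of nose and sinuses. The labels do not give the treatment of the CON group, a vehicle dose for CRS, or the strain, age, sex or hour of collection. Nothing states how many mice stand behind the libraries, and the tests therefore reflect the spread among libraries alone, part of which may be technical.

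Autophagy wraps cytoplasm, worn organelles or microbes in a double membrane and delivers them to the lysosome for digestion. A kinase complex around Ulk1 starts it, a lipid kinase complex around Becn1 and Pik3c3 marks the growing membrane, and ubiquitin-like conjugation reactions attach LC3 and GABARAP proteins, which hold cargo receptors such as Sqstm1. In airway epithelium the pathway is known for clearing damaged mitochondria and intracellular microbes. Much of its control acts on the proteins, by phosphorylation and lipid attachment, which RNA levels do not record.

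Library totals were 15883573 to 18128186 counts in C10, 16531779 to 17523368 in CRS and 16510920 to 18433866 in CON. Markers of nasal mucosa were present in every library: the summed level of 10 genes of mature olfactory neurons was 4739 to 8266 CPM (counts scaled to library size) in C10, 3709 to 9531 CPM in CRS and 3187 to 7819 CPM in CON. Marker levels also differed between libraries of 1 group, and the summed level of 12 macrophage markers was 1116 to 2112 CPM in C10, 482 to 3922 CPM in CRS and 1568 to 3898 CPM in CON. In bulk tissue, fewer cells of a type and less RNA per cell cannot be told apart. CRS 2 and CRS 5 had the lowest macrophage sums of all 18 libraries, 482 and 871 CPM, and the highest olfactory neuron sums, 9531 and 9008 CPM. Without both of them, 0 of the 35 genes were called in any comparison of groups, beside 0.535% of all genes in C10 against CRS, 0.00535% in CRS against CON and 0.396% in C10 against CON.

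Per length, the genes of proteins that coat the membrane and bind cargo had the highest levels. In the deposited FPKM, which are scaled to gene length, Gabarap averaged 116 ± 10.7 in C10, 150 ± 19.6 in CRS and 129 ± 7.06 in CON (SD, n = 6 each). Sqstm1, the cargo receptor also called p62, averaged 101 ± 3.03 FPKM in C10, 101 ± 6.78 FPKM in CRS and 106 ± 8.34 FPKM in CON. Map1lc3a (83.8 FPKM over all 18 libraries), Gabarapl1 (76.1 FPKM), Map1lc3b (34.5 FPKM) and Gabarapl2 (33.7 FPKM) came next, so that the 5 LC3 and GABARAP genes and Sqstm1 held the first 6 places. For genes of the other roles the mean FPKM over all libraries was lower: 5.18 (Rb1cc1) to 16.4 (Atg101) in the initiation complex, 3.76 (Atg14) to 11.1 (Becn1) in the lipid kinase complexes, 4.36 (Atg2b) to 28.7 (Vmp1) among genes of membrane supply, 3.04 (Atg16l1) to 20.3 (Atg12) in the conjugation machinery, and 3.99 (Optn) to 27.9 (Nbr1) among the other cargo receptors. Neighbours in this order mostly overlapped. In 2 of 34 neighbouring pairs the 18 libraries of one gene all lay above those of the next, namely Gabarapl1 above Map1lc3b and Tax1bp1 above Atg12. In CPM, which are not scaled to length, Gabarapl1 (128 to 208 CPM) lay below Map1lc3b (231 to 296 CPM) in every library. The order of this pair thus rests on the lengths of the gene models, 2013 bases for Gabarapl1 and 7517 for Map1lc3b.

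The 35 genes varied little between libraries of a group. Their median coefficient of variation within groups, on the CPM scale, was 9.18%, against 18.6% over all genes tested, which are on average less abundant. Tecpr1 varied least, at 5.61%, and Optn most, at 20.6%; Optn was singled out after its values were seen.

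**Figure D1:**
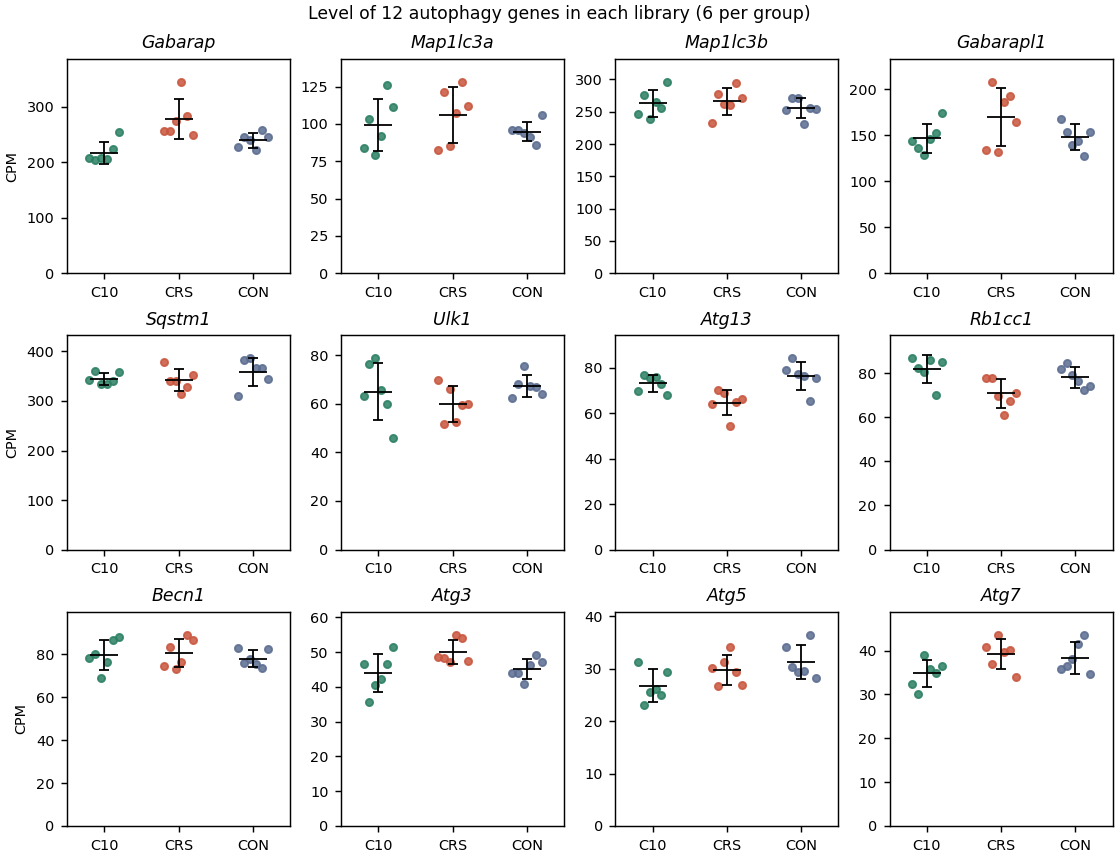
CPM of 12 autophagy genes in each library of C10, CRS and CON (points; 6 per group), with the mean and SD (bars); every axis starts at 0. The groups overlap in each panel, and Gabarap shows the widest gap between group means, 217 CPM in C10 and 278 CPM in CRS.

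No autophagy gene was called in any comparison of groups. With edgeR's quasi-likelihood test, calls being Benjamini-Hochberg adjusted p-values under 0.05, 0 of 35 were called in C10 against CRS, where 0.0820% of all genes tested were called, 0 of 35 in CRS against CON (0.00547% of all genes) and 0 of 35 in C10 against CON (0.159% of all genes). Such small shares leave little to read from a count of 0 among 35. An unadjusted p under 0.05 was found in 7 of the 35 genes, or 20.0%, in C10 against CRS, where 13.2% of all genes tested had one. The count was 7 of 35, or 20.0%, in CRS against CON against 14.0% of all genes, and 2 of 35, or 5.71%, in C10 against CON against 13.1% of all genes. DESeq2 called 1 of the 35 in C10 against CRS, where it called 1.91% of all genes, and 0 in CRS against CON (0.979%) and C10 against CON (1.74%). With limma-voom the count was 1 in C10 against CRS (3.00% of all genes), 1 in CRS against CON (5.14%) and 0 in C10 against CON (1.38%). These calls were Gabarap and Atg13, described below.

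The differences of the members, with their intervals, stayed within 2-fold. The median log2 fold change of the 35 genes was 0.015 in C10 against CRS, -0.053 in CRS against CON and -0.002 in C10 against CON, beside 0.008, 0.004 and 0.012 over all genes tested. Opposite signs cancel in these medians. Taken without sign, the median was 0.11 in C10 against CRS, 0.14 in CRS against CON and 0.059 in C10 against CON. Over all genes tested it was 0.14, 0.16 and 0.15. Single genes ranged over -0.35 to 0.24 in C10 against CRS, over -0.29 to 0.36 in CRS against CON and over -0.23 to 0.26 in C10 against CON. In C10 against CRS the 95% intervals of all 35 genes stayed within a 1.5-fold difference in either direction. In each of the other comparisons 34 of 35 did, Atg10 being the exception, and in all 3 comparisons every interval stayed within 2-fold. The share of all genes with such intervals was not counted. The CPM of the groups compared overlapped for every member in every comparison, while 0.880% of all genes did not overlap in C10 against CRS, 0.662% in CRS against CON and 1.82% in C10 against CON. C10 against CRS and CRS against CON share the CRS libraries, so their values for one gene are not independent of each other.

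**Figure D2:**
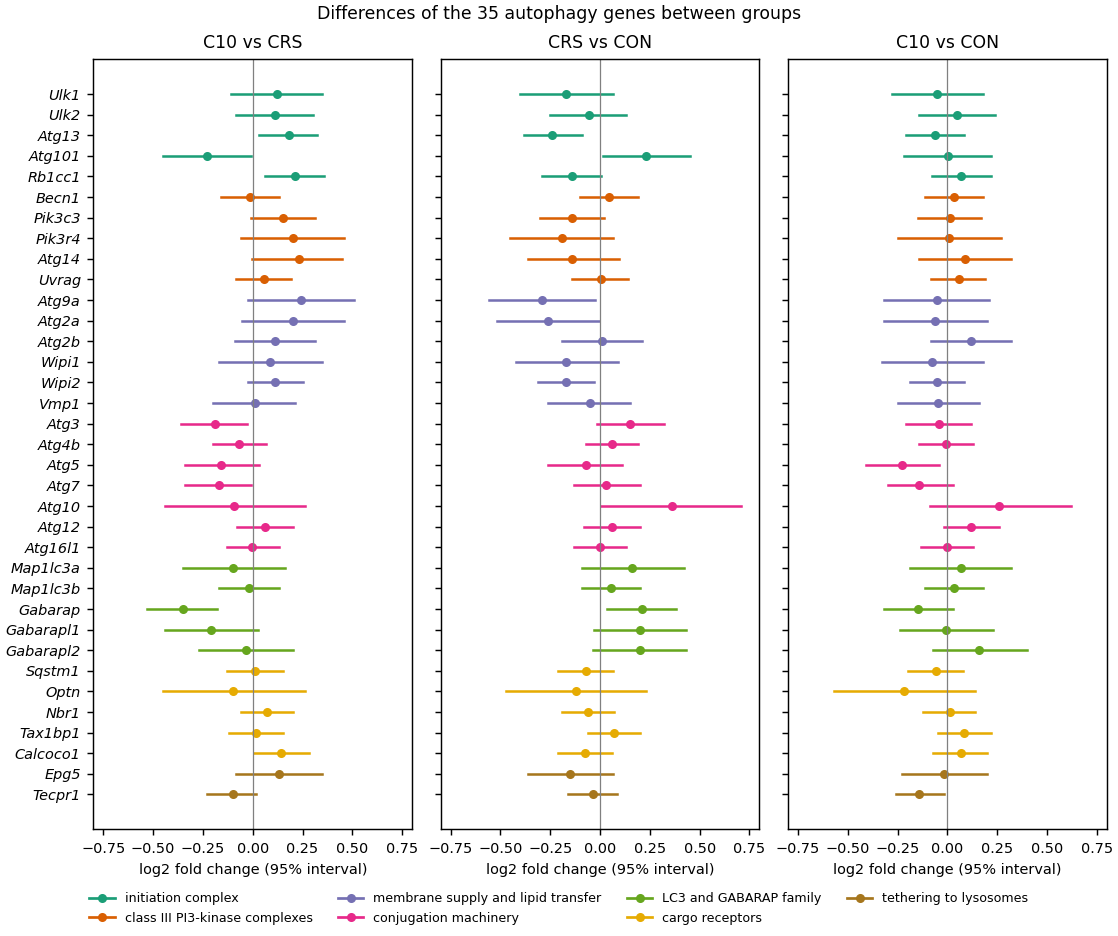
Log2 fold change (points) with its 95% interval (lines) from edgeR for the 35 autophagy genes, coloured by role, in C10 against CRS, CRS against CON and C10 against CON; values above 0 are higher in the group named first. Gabarap lies lowest in C10 against CRS, at -0.35, and Atg10 highest in CRS against CON, at 0.36.

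The GABARAP and LC3 proteins are the ubiquitin-like tags that become coupled to lipid on the autophagosome, with GABARAP proteins acting mainly late, when the autophagosome closes and meets the lysosome. All 5 genes had log2 fold changes below 0 in C10 against CRS (median -0.10) and above 0 in CRS against CON (median 0.20), and in C10 against CON 3 were above and 2 below 0 (median 0.035). The summed level of the 5 genes was 719 to 938 CPM in C10, 768 to 995 CPM in CRS and 762 to 842 CPM in CON. Apart from Map1lc3b (7517 bases), their gene models are short, from 1181 bases (Map1lc3a) to 2325 (Gabarapl2). Medians over all genes tested had the same signs at such lengths. In C10 against CRS they were -0.060 at 1000 to 2000 bases and -0.019 at 2000 to 4000. In CRS against CON they were 0.12 and 0.022. The part of length in the values of this family was not tested.

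Gabarap (ENSMUSG00000018567, mm10 chr11:69991143-69994951) had the smallest p of the 35 genes. Its lowest, median and highest levels were 204, 207 and 255 CPM in C10, 249, 266 and 345 CPM in CRS, and 223, 243 and 259 CPM in CON. The C10 mean was 1.28-fold lower than the CRS mean (log2 fold change -0.35 ± 0.083 SE, 95% interval -0.53 to -0.18, edgeR adjusted p = 0.103). All 6 C10 libraries lay below the CRS median, and the groups overlapped through C10 6, the highest C10 library, and CRS 6, the lowest CRS library. Other fits placed Gabarap past the threshold at nearly the same difference: -0.37 with DESeq2 (adjusted p = 0.00603), -0.31 with limma-voom and quality weights (adjusted p = 0.0214), and -0.35 in edgeR with the level of the macrophage markers (adjusted p = 0.0315) or of the olfactory neuron markers (adjusted p = 0.0219) as a covariate. Those covariate fits called 2.72% and 3.69% of all genes. Over all 31 alternatives the difference lay between -0.42 and -0.29 and the adjusted p between 0.00603 and 0.218. Gabarap had a log2 fold change of 0.21 ± 0.082 in CRS against CON (edgeR adjusted p = 0.281), with all 6 CRS libraries above the CON median, and of -0.15 ± 0.082 in C10 against CON (edgeR adjusted p = 0.464). CRS 4 stood apart at 345 CPM, and without it the difference of C10 from CRS was -0.29 (edgeR adjusted p = 0.143).

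Gabarapl1, a close relative of Gabarap, had 129, 145 and 174 CPM as lowest, median and highest in C10, 132, 175 and 208 CPM in CRS, and 128, 149 and 168 CPM in CON. Its log2 fold change was -0.21 ± 0.11 in C10 against CRS (edgeR adjusted p = 0.445), 0.20 ± 0.11 in CRS against CON (edgeR adjusted p = 0.427) and -0.006 ± 0.11 in C10 against CON (edgeR adjusted p = 0.988). All 6 C10 libraries lay below the CRS median, but the CRS libraries ran across most of the range of the other groups. Map1lc3a, which codes for LC3A, had 79.3, 97.3 and 126 CPM in C10, 82.5, 110 and 128 CPM in CRS, and 85.9, 94.7 and 106 CPM in CON. The log2 fold change of Map1lc3a was -0.10 ± 0.12 in C10 against CRS (95% interval -0.35 to 0.16, edgeR adjusted p = 0.798), 0.16 ± 0.12 in CRS against CON (edgeR adjusted p = 0.555) and 0.067 ± 0.12 in C10 against CON (edgeR adjusted p = 0.851). Map1lc3b codes for LC3B, the form most used as a marker of autophagosomes. Its levels were 238, 260 and 296 CPM in C10, 233, 266 and 294 CPM in CRS, and 231, 255 and 272 CPM in CON. For Map1lc3b the log2 fold change was -0.020 ± 0.070 in C10 against CRS (95% interval -0.17 to 0.13, edgeR adjusted p = 0.939), 0.055 ± 0.070 in CRS against CON (edgeR adjusted p = 0.750) and 0.035 ± 0.070 in C10 against CON (edgeR adjusted p = 0.867). For both LC3 genes the 3 groups overlapped over most of their ranges. Counts of Map1lc3b are less certain, because 4 other genes share at least 250 bases at 95% identity or more with its transcripts, among them Gm6055 with up to 244 counts in a library, and because Map1lc3b overlaps Gm20388 and Zcchc14 in the genome. Gabarapl2 has 3 such near-identical genes, which held at most 12 counts in a library.

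The initiation complex holds the kinases Ulk1 and Ulk2, the scaffold Rb1cc1, also called FIP200, and the adaptors Atg13 and Atg101. Of its 5 genes 4 were above 0 and 1 below in C10 against CRS (median log2 fold change 0.12), 1 above and 4 below in CRS against CON (median -0.14), and 3 above and 2 below in C10 against CON (median 0.003). Rb1cc1 had 70.2, 83.9 and 86.7 CPM as lowest, median and highest in C10, 61.0, 70.4 and 77.8 CPM in CRS, and 72.2, 77.7 and 84.8 CPM in CON. Rb1cc1 differed by a log2 fold change of 0.21 ± 0.070 in C10 against CRS (95% interval 0.063 to 0.36, edgeR adjusted p = 0.205) and -0.14 ± 0.070 in CRS against CON (edgeR adjusted p = 0.377). Of the C10 libraries 5 lay above the CRS median, and the exception, C10 5 at 70.2 CPM, lay apart from the other C10 libraries (80.7 to 86.7 CPM). Rb1cc1 overlaps 4732440D04Rik in the genome, which shares 313 bases at 100% identity with it and held up to 182 counts in a library.

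Atg13, which holds the Ulk kinases to the scaffold, had 68.0, 74.1 and 76.7 CPM in C10, 54.2, 65.4 and 70.0 CPM in CRS, and 65.1, 76.7 and 84.0 CPM in CON. In CRS against CON its log2 fold change of -0.24 ± 0.070 (95% interval -0.38 to -0.091) had the smallest p of the 35 genes and did not pass (edgeR adjusted p = 0.215), while limma-voom with quality weights gave -0.24 and an adjusted p of 0.0274, within a range of 0.0274 to 0.858 over the alternatives. All 6 CRS libraries lay below the CON median. Atg13 differed in C10 against CRS by 0.18 ± 0.070 (edgeR adjusted p = 0.279), with all 6 C10 libraries above the CRS median, and in C10 against CON by -0.061 ± 0.070 (edgeR adjusted p = 0.741). Its partner Atg101 lay on the other side of 0 in both comparisons with CRS. Atg101 had 21.2, 23.8 and 30.8 CPM in C10, 25.1, 27.7 and 37.7 CPM in CRS, and 23.0, 24.8 and 27.4 CPM in CON. The log2 fold change of Atg101 was -0.23 ± 0.10 in C10 against CRS (edgeR adjusted p = 0.360) and 0.23 ± 0.10 in CRS against CON (edgeR adjusted p = 0.333). CRS 4 held the highest level of Atg101 and the lowest levels of Atg13 and Rb1cc1 among the CRS libraries. Without it, Atg101 differed by -0.15 in C10 against CRS and by 0.15 in CRS against CON. The gene model of Atg101 has 1597 bases, against 4368 for Atg13 and 14690 for Rb1cc1. A fit with the length slope of each library, described below, as a covariate gave smaller differences for Atg101. They were -0.17 in C10 against CRS (edgeR adjusted p = 0.492) and 0.10 in CRS against CON (edgeR adjusted p = 0.862).

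Ulk1, the kinase that mTORC1 and AMPK act upon, had 46.0, 64.5 and 78.6 CPM in C10, 51.5, 59.8 and 69.9 CPM in CRS, and 62.2, 67.0 and 75.5 CPM in CON. The log2 fold change of Ulk1 was 0.12 ± 0.11 in C10 against CRS (95% interval -0.11 to 0.35, edgeR adjusted p = 0.709), -0.17 ± 0.11 in CRS against CON (edgeR adjusted p = 0.505) and -0.051 ± 0.11 in C10 against CON (edgeR adjusted p = 0.877). The C10 libraries of Ulk1 spread more widely than those of CRS or CON, from the lowest value of all 18 in C10 6 to the highest in C10 3. Ulk2, a related kinase, had log2 fold changes of 0.11 in C10 against CRS, -0.058 in CRS against CON and 0.049 in C10 against CON.

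The lipid kinase complexes make phosphatidylinositol 3-phosphate on the membrane. Becn1 is their regulatory core, Pik3c3 the kinase, Pik3r4 its partner subunit, and Atg14 and Uvrag define the complex for early and later steps. None of the 5 genes had an unadjusted p under 0.05 in any comparison. Above 0 were 4 in C10 against CRS (median log2 fold change 0.15), in CRS against CON 2 (median -0.14), and in C10 against CON all 5 (median 0.033). Becn1 had 68.8, 79.1 and 88.3 CPM in C10, 73.1, 79.9 and 89.1 CPM in CRS, and 73.7, 76.8 and 82.8 CPM in CON. Its log2 fold change was -0.015 ± 0.070 in C10 against CRS (95% interval -0.16 to 0.13, edgeR adjusted p = 0.957), 0.047 ± 0.070 in CRS against CON (edgeR adjusted p = 0.788) and 0.033 ± 0.070 in C10 against CON (edgeR adjusted p = 0.878). The groups overlapped throughout for Becn1, which overlaps Cntd1 in the genome. Mean levels of the other 4 genes in C10 and CRS were 33.3 and 30.0 CPM for Pik3c3, 53.4 and 46.4 CPM for Pik3r4, 17.6 and 15.1 CPM for Atg14, and 67.6 and 65.2 CPM for Uvrag. Uvrag transcripts share stretches of at least 250 bases at 95% identity or more with 13 other genes, so its counts may hold reads of others.

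Genes of membrane supply were the role with the most unadjusted p-values under 0.05 in CRS against CON, at 3 of 6, each below 0, where 14.0% of all genes had one. With the length slope of each library, described below, as a covariate, 1 of the 6 had one: Wipi2 was at -0.17 (edgeR adjusted p = 0.858), while Atg9a was at -0.13 (edgeR adjusted p = 0.861) and Atg2a at -0.11 (edgeR adjusted p = 0.867). Without the covariate, 0 of the 6 had one in C10 against CRS or in C10 against CON. The initiation complex had 3 of 5 in C10 against CRS (13.2% of all genes), 2 above and 1 below 0. In CRS against CON it had 2 of 5, 1 above and 1 below 0. Atg9a is the scramblase of the vesicles that seed the autophagosome, Atg2a and Atg2b carry lipid into it, Wipi1 and Wipi2 bind its phosphoinositide, and Vmp1 acts at the endoplasmic reticulum contact. All 6 genes were above 0 in C10 against CRS (median log2 fold change 0.11), and 1 was above and 5 below 0 in CRS against CON (median -0.17) as in C10 against CON (median -0.053). Atg9a had 25.3, 31.1 and 34.3 CPM in C10, 17.5, 26.9 and 32.0 CPM in CRS, and 27.8, 31.4 and 38.2 CPM in CON. Its log2 fold change was -0.29 ± 0.13 in CRS against CON (95% interval -0.56 to -0.027, edgeR adjusted p = 0.315) and 0.24 ± 0.13 in C10 against CRS (edgeR adjusted p = 0.432). Without CRS 4, the lowest CRS library, the difference of C10 from CRS was 0.14. Of the CRS libraries 5 lay below the CON median. Atg9a overlaps Ankzf1, and without a stated strand the reads of both cannot be told apart.

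Wipi2, which recruits the conjugation machinery, had 72.1, 80.6 and 87.6 CPM in C10, 68.2, 73.0 and 81.6 CPM in CRS, and 75.3, 82.6 and 91.1 CPM in CON. It differed by -0.17 ± 0.066 in CRS against CON (95% interval -0.31 to -0.031, edgeR adjusted p = 0.275), with all 6 CRS libraries below the CON median, and by 0.11 ± 0.066 in C10 against CRS (edgeR adjusted p = 0.482). Atg2a, named after its values were seen, had a log2 fold change of -0.26 ± 0.12 in CRS against CON (edgeR adjusted p = 0.349). CRS 1 was the highest CRS library at 57.2 CPM, where the CRS median was 37.6 CPM, and without CRS 1 Atg2a fell in CRS against CON (-0.39 ± 0.10, edgeR adjusted p = 0.0350). In that fit 5.39% of all genes were called, and over the alternatives the adjusted p of Atg2a ran up to 0.867.

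The conjugation machinery attaches LC3 and GABARAP proteins to lipid. Atg7 is the activating enzyme, Atg3 and Atg10 are the conjugating enzymes, Atg12 is joined to Atg5 and works with Atg16l1, and Atg4b trims the LC3 precursors. Of the 7 genes 1 was above and 6 below 0 in C10 against CRS (median log2 fold change -0.092), in CRS against CON 6 were above and 1 below (median 0.060), and in C10 against CON 2 were above and 5 below (median -0.009). Atg3 had 35.8, 44.4 and 51.4 CPM in C10, 47.1, 48.5 and 55.0 CPM in CRS, and 40.7, 45.2 and 49.2 CPM in CON. Its log2 fold change was -0.19 ± 0.079 in C10 against CRS (95% interval -0.36 to -0.027, edgeR adjusted p = 0.300) and 0.15 ± 0.079 in CRS against CON (edgeR adjusted p = 0.407). Against the CRS median, 5 of the C10 libraries were lower, and against the CON median each of the 6 CRS libraries was higher. Atg7 had 30.2, 35.3 and 39.1 CPM in C10, 34.0, 39.9 and 43.6 CPM in CRS, and 34.6, 37.2 and 43.6 CPM in CON. It differed by -0.17 ± 0.079 in C10 against CRS (edgeR adjusted p = 0.361), by 0.032 ± 0.078 in CRS against CON (edgeR adjusted p = 0.877) and by -0.14 ± 0.078 in C10 against CON (edgeR adjusted p = 0.460). All 6 C10 libraries of Atg7 lay below the CRS median and 5 below the CON median.

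Atg5 was the member of smallest p in C10 against CON. Its lowest, median and highest levels were 23.0, 25.9 and 31.4 CPM in C10, 26.7, 29.8 and 34.2 CPM in CRS, and 28.2, 29.9 and 36.5 CPM in CON. The log2 fold change of Atg5 was -0.23 ± 0.089 in C10 against CON (95% interval -0.41 to -0.042, edgeR adjusted p = 0.286), -0.16 ± 0.089 in C10 against CRS (edgeR adjusted p = 0.483) and -0.073 ± 0.089 in CRS against CON (edgeR adjusted p = 0.734). Of the C10 libraries 5 lay below the CON median, with C10 1 above it. Its partner Atg12 had 49.0, 54.0 and 58.3 CPM in C10, 46.8, 52.0 and 53.1 CPM in CRS, and 42.4, 50.5 and 53.4 CPM in CON, and differed by 0.12 ± 0.066 in C10 against CON (edgeR adjusted p = 0.445). Of its C10 libraries 4 lay above the CON median. Atg10, which joins Atg12 to Atg5, had the lowest CPM of the 35 genes, at 8.35, 10.3 and 12.4 CPM in C10, 8.72, 10.9 and 14.2 CPM in CRS, and 6.39, 8.04 and 12.3 CPM in CON. Its intervals were also among the widest, and in CRS against CON its log2 fold change was 0.36 ± 0.17 (95% interval 0.004 to 0.71, edgeR adjusted p = 0.351), with 6 of 6 CRS libraries above the median of CON. Atg10 differed in C10 against CON by 0.26 ± 0.17 (edgeR adjusted p = 0.516).

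Promoters of the members were searched for the letters TCACGTGA, the motif of lysosomal and autophagy genes that TFEB and its relatives bind, and for the shorter E-box CACGTG that it contains. Both read the same on either strand. RefSeq windows on GRCm38.p6, each 250 bases before to 50 bases after a start, were found for 28 of the 35 genes, with 32 windows in all. In 27 of these 32 windows the last 20 bases lay in a transcript of the gene, so the others are less certain. TCACGTGA was in 1 of the 32 windows (3.12%), that of Atg3, and in 0.974% of all 32851 windows. CACGTG was in 4 windows (12.5%), of Atg3, Atg5, Atg7 and Atg14, and in 7.15% of all windows. The windows of Atg7 and Atg14 belong to starts inside the gene, 27999 and 2215 bases downstream of the start in the count table. In comparison, TCACGTGA was in 3 of 32 windows of the lysosomal hydrolase genes (9.38%) and in 3 of 13 of V-ATPase subunits (23.1%), both described below. CACGTG was in 11 of these hydrolase windows (34.4%) and in 4 of these V-ATPase windows (30.8%). Windows were found for 11 of the 17 V-ATPase genes. A match describes the letters and is not a binding site. The sequences of Atg3 and Atg5 are shown, because their matches lie in front of the start that the count table gives for the gene, with the matches in capitals: chr16:45158579-45158784 (plus strand) for Atg3 and chr10:44268313-44268342 (plus strand) for Atg5.
Atg3: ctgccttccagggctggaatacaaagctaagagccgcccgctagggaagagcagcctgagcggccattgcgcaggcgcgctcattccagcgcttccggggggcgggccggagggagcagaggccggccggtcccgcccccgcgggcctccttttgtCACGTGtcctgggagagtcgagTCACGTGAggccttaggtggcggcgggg
Atg5: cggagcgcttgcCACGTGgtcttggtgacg

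Cargo receptors bind ubiquitin or damaged organelles with one end and LC3 or GABARAP with the other. Of the 5 genes 4 were above 0 in C10 against CRS (median log2 fold change 0.015), in CRS against CON 1 (median -0.071), and in C10 against CON 3 (median 0.012). Sqstm1 (ENSMUSG00000015837, mm10 chr11:50199366-50210827), whose protein is itself digested by autophagy, had 334, 341 and 361 CPM in C10, 314, 340 and 378 CPM in CRS, and 310, 367 and 386 CPM in CON. For Sqstm1 the log2 fold change was 0.012 ± 0.065 in C10 against CRS (95% interval -0.13 to 0.15, edgeR adjusted p = 0.963), -0.071 ± 0.065 in CRS against CON (edgeR adjusted p = 0.649) and -0.059 ± 0.065 in C10 against CON (edgeR adjusted p = 0.735). The C10 libraries of Sqstm1 lay within the range of the CRS libraries. Sqstm1 overlaps the coding gene Mrnip, which shares 583 bases at 100% identity with it and held up to 54 counts in a library. Calcoco1, a receptor for parts of the endoplasmic reticulum and Golgi, had 78.0, 86.6 and 90.6 CPM in C10, 70.8, 76.4 and 84.0 CPM in CRS, and 73.7, 80.7 and 93.3 CPM in CON. It differed by 0.14 ± 0.066 in C10 against CRS (95% interval 0.005 to 0.28, edgeR adjusted p = 0.363), with all 6 C10 libraries above the CRS median. Mean levels in C10 and CRS were 197 and 188 CPM for Nbr1 and 276 and 273 CPM for Tax1bp1, both ubiquitin-binding receptors, and 14.0 and 15.0 CPM for Optn, a receptor for mitochondria and bacteria.

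Tecpr1 and Epg5 help the finished autophagosome to meet the lysosome. Tecpr1 had 67.2, 74.6 and 78.1 CPM in C10, 73.0, 78.5 and 83.7 CPM in CRS, and 74.8, 83.2 and 83.4 CPM in CON. In C10 against CON its log2 fold change was -0.14 ± 0.058 (95% interval -0.26 to -0.018, edgeR adjusted p = 0.313), with all 6 C10 libraries below the CON median, and in C10 against CRS it was -0.10 ± 0.058 (edgeR adjusted p = 0.460). Epg5 averaged 52.0 CPM in C10, 47.4 CPM in CRS and 52.5 CPM in CON.

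Short and long members mostly lay on different sides of 0 in the comparisons with CRS. The split at 4000 bases was chosen after the values were seen. Of the 12 members with gene models up to 4000 bases, 3 were above and 9 below 0 in C10 against CRS (median log2 fold change -0.10), and of the 23 longer members 17 were above and 6 below (median 0.11). In CRS against CON the shorter members had 8 above and 4 below 0 (median 0.16), and the longer ones had 8 above and 15 below (median -0.077). Over all genes tested the same tilt was present and smaller: 55.7% of the shorter genes were below 0 and 60.0% of the longer ones above 0 in C10 against CRS, while 59.9% of the shorter ones were above 0 and 59.3% of the longer ones below 0 in CRS against CON. Across the 35 genes, Pearson's r of log2 fold change with log2 length was 0.55 in C10 against CRS, -0.55 in CRS against CON and -0.037 in C10 against CON, and 0.13, -0.24 and -0.11 across the 18291 genes. These are descriptions across genes of the same libraries.

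The tilt differed between libraries of a group. The slope of a library's log2 CPM, as a deviation from each gene's mean over all libraries, on log2 gene length ran from -0.0753 in C10 6 to 0.0469 in C10 4, from -0.138 in CRS 4 to 0.0547 in CRS 2, and from -0.00158 in CON 5 to 0.0701 in CON 3. Among the CRS libraries, CRS 4 held the highest level in 6 of the 12 shorter members and the lowest level in 11 of the 23 longer ones. Such counts were not particular to CRS 4. Among the CON libraries, CON 5, with a slope of -0.00158, also held the lowest level in 11 of the 23 longer members. It held the highest in 3 of the 12 shorter ones. Among the C10 libraries, C10 6 held the highest level in 5 of the 12 shorter members. Of the 23 longer ones it held the lowest level in 8 and the highest in 7. With this slope as a covariate, a setting added after the data were seen, Gabarap differed by -0.30 in C10 against CRS (edgeR adjusted p = 0.0604) and by 0.079 in CRS against CON (edgeR adjusted p = 0.859), and Atg13 differed by -0.15 in CRS against CON (edgeR adjusted p = 0.858). In C10 against CON some differences were larger with the covariate. Gabarap was at -0.22 (edgeR adjusted p = 0.154), against -0.15 without it, and had the smallest p of the members. Atg5 was at -0.28 (edgeR adjusted p = 0.199), against -0.23, while Atg13 was smaller, at -0.009 against -0.061. No member was called in that fit, which called 0.0656% of all genes in C10 against CRS, 0% in CRS against CON and 0.142% in C10 against CON, so the count says little about the members. Which property of the libraries the slope reflects was not tested.

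**Figure D3:**
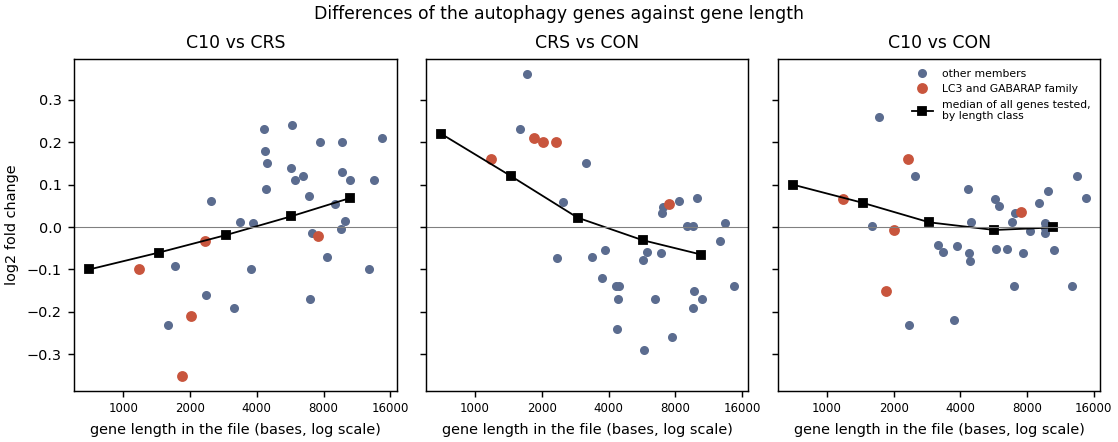
Log2 fold change of each autophagy gene against the length of its gene model in bases (log scale) in the 3 comparisons, with the LC3 and GABARAP family in red and the median of all genes tested by length class as black squares. The 12 members up to 4000 bases lie mostly below 0 in C10 against CRS and mostly above 0 in CRS against CON, and the black squares run the same way.

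Other genes of the pathway were taken from lists made with earlier results of these data known. No gene was called in any comparison among 16 other genes of autophagosome formation, 12 genes of fusion with the lysosome, 16 receptors of organelle autophagy, 18 regulators of mTORC1 and AMPK, or 8 MiT/TFE and FoxO transcription factors. The shares of all genes called, 0.0820%, 0.00547% and 0.159% in the 3 comparisons, leave little to read from these counts. The medians of these 5 lists lay between -0.090 and 0.034 in C10 against CRS, between -0.093 and 0.074 in CRS against CON, and between -0.070 and 0.048 in C10 against CON. Below 0 in C10 against CON were 11 of the 12 fusion genes and all 8 transcription factors.

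Among the fusion genes 4 of 12 had an unadjusted p under 0.05 in C10 against CRS, all below 0, beside 13.2% of all genes. Their summed level was 768 to 817 CPM in C10, 815 to 939 CPM in CRS and 820 to 892 CPM in CON, so that C10 overlapped CRS and lay below CON. Vps18, a subunit of the complexes that tether membranes to the lysosome, had the smallest p of the 5 lists in C10 against CRS (log2 fold change -0.47 ± 0.10, edgeR adjusted p = 0.0728) and was named after its values were seen. It differed by 0.19 ± 0.10 in CRS against CON (edgeR adjusted p = 0.376) and by -0.27 ± 0.10 in C10 against CON (edgeR adjusted p = 0.243). Among the other formation genes Atg16l2, a relative of Atg16l1, had the smallest p, with 8.23 ± 1.08 CPM in C10 and 11.4 ± 2.43 CPM in CRS (± SD of 6 libraries), a log2 fold change of -0.47 ± 0.17 (edgeR adjusted p = 0.234). Ei24, of the endoplasmic reticulum membrane, followed with 82.6 ± 5.44 CPM in C10 and 92.8 ± 10.7 CPM in CRS (-0.17 ± 0.075, edgeR adjusted p = 0.345). Atg16l2 also had the smallest p in CRS against CON (0.41 ± 0.17, edgeR adjusted p = 0.295), followed by Rubcn, a brake on the lipid kinase complex (-0.18 ± 0.084, edgeR adjusted p = 0.358). In C10 against CON the smallest p belonged to Wdr45 (0.16 ± 0.10, edgeR adjusted p = 0.521), which binds phosphoinositide, and Atg4a (0.094 ± 0.10, edgeR adjusted p = 0.716), which trims LC3-type precursors.

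The lysosome, where autophagosomes end, held called genes. Of 36 lysosomal hydrolases 0 were called in C10 against CRS, with 1 above and 35 below 0 (median log2 fold change -0.29), and 0 in CRS against CON, with 2 above and 34 below (median -0.13). In C10 against CON 4 of the 36 fell, beside 0.115% of all genes called lower, and all 36 were below 0 (median -0.49). Ctsd, the protease cathepsin D, averaged 342 ± 22.2 CPM in C10 and 699 ± 214 CPM in CON (SD, n = 6 each; -1.03 ± 0.18 SE, edgeR adjusted p = 0.0275), and Arsa, a sulfatase, 19.3 ± 1.21 CPM in C10 and 28.4 ± 2.42 CPM in CON (-0.55 ± 0.080, edgeR adjusted p = 0.0108). The other called hydrolases, named after their values were seen, were Hexa and Tpp1. Of 17 subunits of the V-ATPase, the proton pump that acidifies lysosomes, 3 fell in C10 against CRS, beside 0.0656% of all genes called lower, and all 17 were below 0 (median -0.33). Atp6ap2 averaged 185 ± 6.75 CPM in C10 and 253 ± 26.6 CPM in CRS (-0.45 ± 0.076, edgeR adjusted p = 0.0232), Atp6v1c1 50.7 ± 2.77 CPM in C10 and 64.7 ± 4.47 CPM in CRS (-0.35 ± 0.062, edgeR adjusted p = 0.0284), and the third, named after its values were seen, was Atp6v0c. Against CON, no V-ATPase gene was called in C10 (median -0.14) or in CRS (median 0.15). Beside these lists, the summed level of 6 markers of lipid-associated macrophages, cells rich in lysosomes, was 392 to 579 CPM in C10, 547 to 1626 CPM in CRS and 747 to 2205 CPM in CON, and its part in the lysosomal values was not tested. The difference between the lysosomal lists and the autophagy genes was not tested either.

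**Figure D4:**
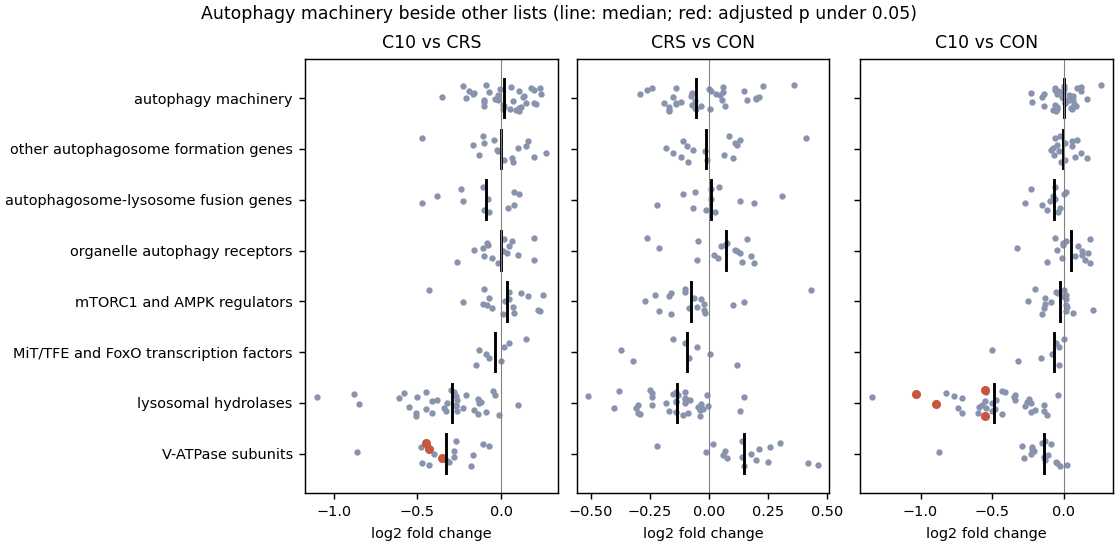
Log2 fold change of every tested gene of 8 lists in C10 against CRS, CRS against CON and C10 against CON, with the list median as a black line and genes of edgeR adjusted p under 0.05 in red. The 35 autophagy genes sit around 0 in each panel, with medians of 0.015, -0.053 and -0.002, and red points occur among the lysosomal hydrolases and V-ATPase subunits.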

How the data were processed

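The authors deposited gene-level counts, which are whole numbers and not normalized, and FPKM for the same 18 libraries of nasal mucosa, with 1 column per library and 0 columns left over. The deposited FPKM are a constant multiple of count over gene length within each column. The build is mm10 per the submitters' processing notes, while for aligner, counter and annotation nothing is given in these sources. The VAHTS kit of the labels is not stated to keep the strand: 18 of the 35 genes overlap some other gene, 6 of them a coding gene, and shared reads cannot be separated. The 35 genes and the lists were chosen with earlier results of these data known.

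Counts were filtered with filterByExpr by group (18291 of 54532 genes kept) and fitted in R 4.3.3 with edgeR 4.0.16: TMM factors, glmQLFit and two-sided glmQLFTest on all 18 libraries with 1 mean per group, and Benjamini-Hochberg adjustment over all genes tested. The biological coefficient of variation was 0.264. CPM use TMM-scaled library sizes, a count of 3 equals 0.163 to 0.193 CPM, and this floor covers counting error only. The SE is the log2 fold change over the square root of F, and 95% intervals use the fit's degrees of freedom. FPKM were used for levels between genes and, as log2 of FPKM plus 1 or 0.1, in limma.

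Described in full were members called in edgeR (0), the 3 of smallest p in each direction in C10 against CRS and CRS against CON, the 2 in C10 against CON, members whose groups do not overlap (0), and 8 fixed genes (Sqstm1, Map1lc3a, Map1lc3b, Gabarapl1, Ulk1, Becn1, Atg5 and Atg7), which made 19. Alternatives were RLE factors, a fit with replicate numbers as a block, no filter or at least 1 CPM in 6 libraries, the 2 groups alone, marker levels or the length slope as covariates, DESeq2 1.42.0, limma-voom (limma 3.58.1), limma on FPKM, no CRS 2 and CRS 5, and leaving out each library. The fit was also run on counts simulated from its own estimates of spread. They hold no shifts shared by many genes of a library, such as the length tilt, so that run does not cover them. Chi-square per degree of freedom was at least 14.1 in all 153 pairs of libraries, far above sampling noise, so none looked deposited again.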

Additional observations from a re-analysis of the deposited data

Results flagged for a closer look

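In 4 of 105 sets of 6 libraries of 1 group and 1 gene, a single library lay far from the others, with a gap to its nearest neighbour past the 95% critical value of Dixon's test. Chance gives such a gap in about 1 of 20 sets. Gabarap reached 345 CPM in CRS 4, where the other CRS libraries had 249 to 283 CPM. Rb1cc1 was at 70.2 CPM in C10 5, where the other C10 libraries had 80.7 to 86.7 CPM. Atg2a was at 35.7 CPM in C10 6, where the others had 46.5 to 52.7 CPM. Atg9a reached 38.2 CPM in CON 3, where the others had 27.8 to 31.7 CPM.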

How the results depend on the processing

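For the 39 values of single named members, 31 settings gave 1209 alternatives, of which 1166 kept the direction and the side of the threshold, 5 passed it (Gabarap in C10 against CRS 4 times, Atg13 in CRS against CON once) and 38 changed sign, all of values at most 0.160 in size as reported. In C10 against CRS, 1 member (Gabarap) was called with DESeq2, limma-voom, the olfactory neuron covariate and the macrophage covariate, and in CRS against CON 1 with limma-voom (Atg13) and 0 to 1 with 1 library left out (Atg2a without CRS 1). Genes called in C10 against CRS (15 as reported) were 9 with the 2 groups alone, 675 with the olfactory neuron covariate, 497 with the macrophage covariate, 350 with DESeq2, 548 with limma-voom, 23 with log2 of FPKM plus 1, 100 without CRS 2 and CRS 5, and 7 to 81 with 1 library left out. In CRS against CON (1 as reported) they were 3 with the stricter filter, 0 with the 2 groups alone, 2 with the olfactory neuron covariate, 179 with DESeq2, 940 with limma-voom, 2 with either FPKM pseudocount, 0 with the length slope, and 0 to 994 with 1 library left out, the highest without CRS 1. In C10 against CON (29 as reported) they were 17 without a filter, 161 with the 2 groups alone, 297 with the olfactory neuron covariate, 271 with the macrophage covariate, 318 with DESeq2, 252 with limma-voom, 74 without CRS 2 and CRS 5, and 3 to 110 with 1 library left out. The median of the 35 genes in CRS against CON was -0.014 with the length slope and -0.054 to -0.005 with 1 library left out.

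Correlations of same-numbered libraries were mixed: -0.231 to 0.519 in C10 against CRS, where 4 of 6 pairs were over 0.1 and 3 of 6 correlated best with their own number, -0.574 to 0.225 in CRS against CON and -0.417 to 0.185 in C10 against CON. As not every pair was over 0.1, and nothing in the labels ties the numbers, they were not taken to pair the libraries. With the replicate block 13 genes were called in C10 against CRS, 0 in CRS against CON and 12 in C10 against CON, and 0 autophagy genes.

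Signs changed as follows. In C10 against CRS, Sqstm1 was -0.002 with the 2 groups alone, -0.001 with limma-voom, -0.022 without CRS 2 and CRS 5 and -0.022 to 0.042 with 1 library left out. Without CRS 2 and CRS 5, Becn1 was 0.019, Map1lc3a 0.018 and Map1lc3b 0.016, and with 1 library left out Becn1 was -0.058 to 0.024 and Map1lc3b -0.069 to 0.007. In CRS against CON, Atg7 was -0.040 with limma-voom and -0.013 with the length slope, and with the macrophage covariate Becn1 was -0.022, Map1lc3a -0.004 and Map1lc3b -0.009. In C10 against CON the macrophage covariate gave -0.072 for Becn1, -0.17 for Map1lc3a, -0.061 for Map1lc3b and 0.068 for Ulk1, and the olfactory neuron covariate -0.015 for Becn1 and -0.042 for Map1lc3a. Ulk1 was 0.009 with limma-voom and 0.005 with the length slope. With 1 library left out, Becn1 was -0.005 to 0.071, Gabarapl1 -0.067 to 0.033, Map1lc3a -0.024 to 0.12, Map1lc3b -0.008 to 0.062 and Ulk1 -0.11 to 0.024. The cause of these shifts was not tested. With 6 libraries a group, the median SE of the members was 0.082 to 0.083 on the log2 scale. The 95% intervals reach further than 1 SE, as for Becn1 in C10 against CRS, with -0.16 to 0.13 around -0.015. Member differences whose 95% interval includes 0 lie within the error.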
